A study of Mus musculus with 3 samples.

Results

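Within 1 condition, 164 genes lay over 2-fold apart between the highest and the lowest of 3 myoblast lines. They were 164 of 8116 autosomal genes compared (2.02%). The levels were TPM, an abundance per transcript length that sums to 1000000 over a library, summed per gene, and the range of a gene was its highest minus its lowest line on the log2(TPM + 1) scale. A gene was compared when its mean over the 3 lines reached 10 TPM, and it belonged to the set when its range exceeded 1. Nnat, Mest, Cdkn1c and Igf2, the X and Y chromosomes, and genes whose symbols start with Col, Hox or Myh were left out. Because the levels themselves chose these genes, their ranges are a description with no test.

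The 3 lines, 66, 67 and 72, were mouse myoblasts of the genotype Dmdmdx; Pax7-nGFP that carried a CRISPR/Cas9 edit of Dmd. The study calls this edit a correction of the mdx mutation, made by an exon-skipping strategy that restored the reading frame. Dmd encodes dystrophin, the mdx mutation lies in its exon 23, and Pax7-nGFP is a nuclear green fluorescent reporter of satellite cells, from which muscle regenerates. By the study's description, edited iPSCs were injected into mouse blastocysts that carried Pax7-Cre/ERT2 and Rosa26-lsl-DTA, alleles by which tamoxifen ablates host cells expressing Pax7, and the satellite cells of the resulting intraspecies chimeras were sorted and grown as myoblasts. All 3 lines shared the edit, the reporter and the chimeric origin. The labels give neither which lines came from tamoxifen-injected chimeras nor the age of the animals, and they do not say whether each line came from a separate chimera. There was 1 poly-A-selected library per line, so a difference between lines cannot be told apart from a difference between their cultures or libraries. No libraries of other cells were analysed here.

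Myoblasts are dividing muscle precursors. When they leave the cell cycle, Myod1 and Myog switch on contractile proteins, calcium-handling proteins and the membrane proteins that fuse cells into myotubes. A culture of myoblasts usually holds some cells that have begun this step.

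Line 66 had 73274315 estimated counts in all, line 67 had 66972426 and line 72 had 70272367. The myoblast genes were expressed in every line, with a range between 0.06 for Chrna1 and 0.88 for Myog, which stood at 168, 222 and 310 TPM in lines 66, 67 and 72. Pax7 stood at 136, 143 and 154 TPM and Myod1 at 791, 702 and 579 TPM. The median range was 0.23 over all genes compared and 1.30 over the 164. Of the 164, 34 lay over 4-fold apart, which is a range above 2, 10 had a range above 3, and 4 had a range above 4.

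Differences of this size were more frequent among less abundant genes. Between 10 and 20 TPM, 75 of 2087 genes (3.59%) were over 2-fold apart, against 58 of 2866 (2.02%) between 20 and 50 TPM. Between 50 and 100 TPM there were 14 of 1607 (0.871%), and above that 17 of 1556 (1.09%). The counts behind the values were not low, since 154 of the 164 had at least 100 estimated counts in every line and the median of their lowest counts was 1118.

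**Figure D1:**
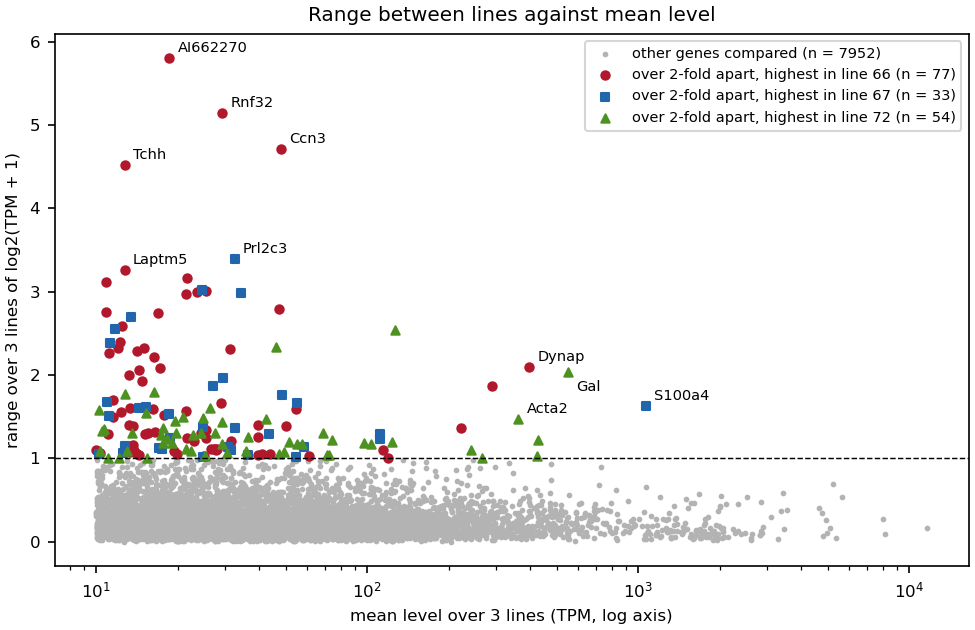
The range of log2(TPM + 1) over lines 66, 67 and 72 (y axis) is plotted against the mean TPM on a log axis (x axis) for the 8116 genes compared, with 1 point per gene. Coloured points above the dashed line at 1 are the 164 genes over 2-fold apart, marked by their highest line, and grey points are the other 7952 genes; AI662270, Rnf32, Ccn3 and Tchh lie above 4.

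The 4 genes with the largest ranges were all highest in line 66. AI662270, a noncoding transcript at chr11:83223576-83226604 on the plus strand (GRCm38), was at 55.9, 0.0177 and 0.0524 TPM in lines 66, 67 and 72. Only 2 estimated counts were listed in each of lines 67 and 72, against 2887 in line 66. In counts scaled to 1000000 per library (CPM), line 66 was 1319 times line 67, with a 95% exact interval of 365 to 10900 that covers counting error only. Transcript AI662270-202 held 94.6% of the gene's level in line 66.

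Rnf32 encodes a protein with RING finger domains and lies at chr5:29195992-29228457 on the plus strand. It was at 84.0 TPM in line 66, 1.78 in line 67 and 1.41 in line 72, a mean of 29.1 ± 47.6 TPM (SD, n = 3 lines). The transcript with the largest share in line 66 was Rnf32-206, annotated as a retained intron, with 45.5% of the gene's level. A different transcript led in each line.

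Tchh encodes trichohyalin, a structural protein of the hair follicle's inner root sheath, and lies at chr3:93442330-93449077 on the plus strand. Its levels were 37.0, 0.654 and 0.676 TPM in lines 66, 67 and 72, and its estimated counts 8084, 129 and 134. Lines 67 and 72 were nearly equal, and line 66 was alone at a high level. Ccn3, which encodes a secreted matricellular protein, lies at chr15:54745702-54754039 on the plus strand and did not follow that form. It was graded, at 125 TPM in line 66, 15.4 in line 67 and 3.82 in line 72, so that neighbouring lines lay over 2-fold apart at both steps.

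Genes beside these 4 are given for comparison. Within 100 kb of AI662270 and with a mean of at least 1 TPM, AA465934 had a range of 0.23 and Ap2b1 of 0.33. Lmbr1, beside Rnf32, was at 4.73, 4.79 and 5.36 TPM, a range of 0.15. S100a11, beside Tchh, had the same range of 0.15 at levels of 1753, 1583 and 1755 TPM. No gene at that level lay within 100 kb of Ccn3.

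The promoter windows of Rnf32 and Tchh are shown because both genes were high in line 66 alone while their base composition was far apart. Each window runs from 250 bases before to 50 after the gene's start (RefSeq, GRCm38.p6), and capitals mark CG. The Rnf32 window, chr5:29195743-29196042 on the plus strand, held 36 CG and was 71% G or C, while the Tchh window, chr3:93442080-93442379 on the plus strand, held 1 CG and was 28.7% G or C.
Rnf32: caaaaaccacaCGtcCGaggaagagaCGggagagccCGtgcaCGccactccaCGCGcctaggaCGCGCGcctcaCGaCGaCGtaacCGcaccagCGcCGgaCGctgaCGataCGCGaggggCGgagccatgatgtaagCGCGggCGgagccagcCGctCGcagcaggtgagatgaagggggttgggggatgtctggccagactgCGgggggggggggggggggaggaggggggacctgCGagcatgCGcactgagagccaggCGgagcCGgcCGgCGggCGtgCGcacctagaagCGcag
Tchh: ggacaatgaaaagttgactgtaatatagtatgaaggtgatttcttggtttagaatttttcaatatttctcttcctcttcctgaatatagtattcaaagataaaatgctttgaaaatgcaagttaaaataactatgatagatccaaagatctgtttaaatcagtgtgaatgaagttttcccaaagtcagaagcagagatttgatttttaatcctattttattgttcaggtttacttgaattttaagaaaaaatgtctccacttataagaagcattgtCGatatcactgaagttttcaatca

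To describe the whole set, a line was taken to stand apart when the larger gap between neighbouring values on the log2(TPM + 1) scale was at least 2 times the smaller one. Line 66 stood apart as high in 32 of the 164 (19.5%) and as low in 19 (11.6%). Line 67 was high in 12 (7.32%) and low in 12 (7.32%), and line 72 was high in 11 (6.71%) and low in 15 (9.15%). The other 63 (38.4%) were graded with no line apart. By the same rule over all 8116 genes, whatever their range, line 66 was high in 11.7% and low in 19.1%, line 67 high in 6.27% and low in 8.85%, and line 72 high in 13.9% and low in 4.77%.

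Among the 164, line 66 was the highest line in 77, line 72 in 54 and line 67 in 33. The lowest line was 66 in 53, 67 in 57 and 72 in 54. Over all genes compared, the highest line was 66 in 28.6%, 67 in 25.9% and 72 in 45.5%, and the lowest was 66 in 47.4%, 67 in 32.9% and 72 in 19.7%. By pairs of lines, 96 of the 164 were over 2-fold apart between lines 66 and 72, 89 between 66 and 67, and 64 between 67 and 72.

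**Figure D2:**
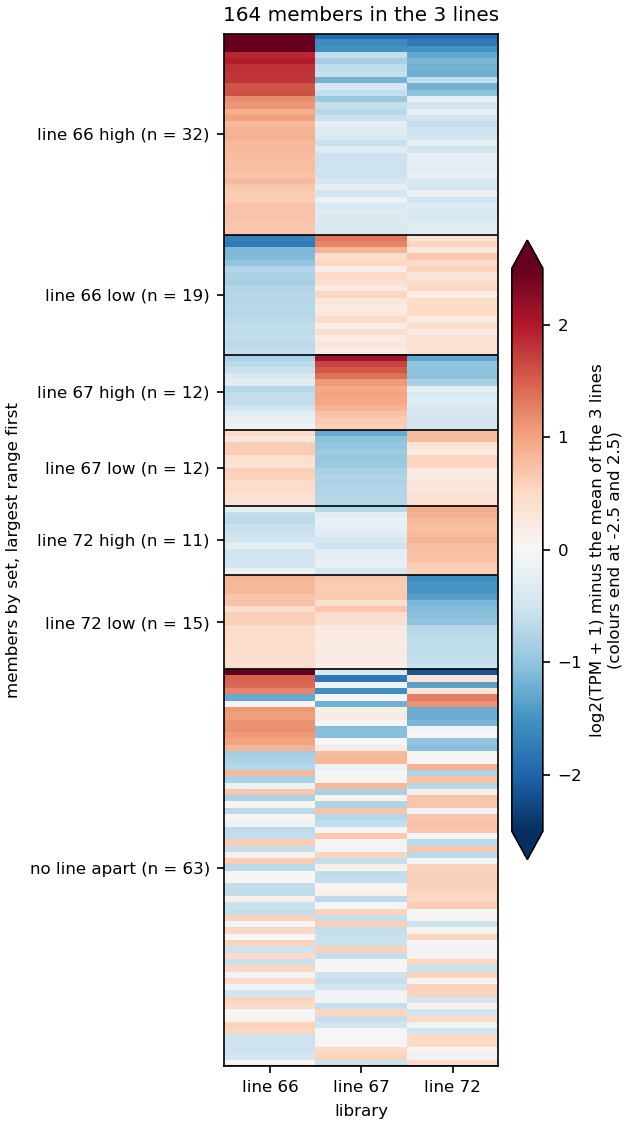
Each row is 1 of the 164 genes and each column 1 line, and colour gives log2(TPM + 1) minus the gene's mean over the 3 lines, with rows grouped by the line that stood apart and ordered by range. The 32 genes high in line 66 hold the deepest colours at the top, and the 63 graded genes fill the lowest block.

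**Figure D3:**
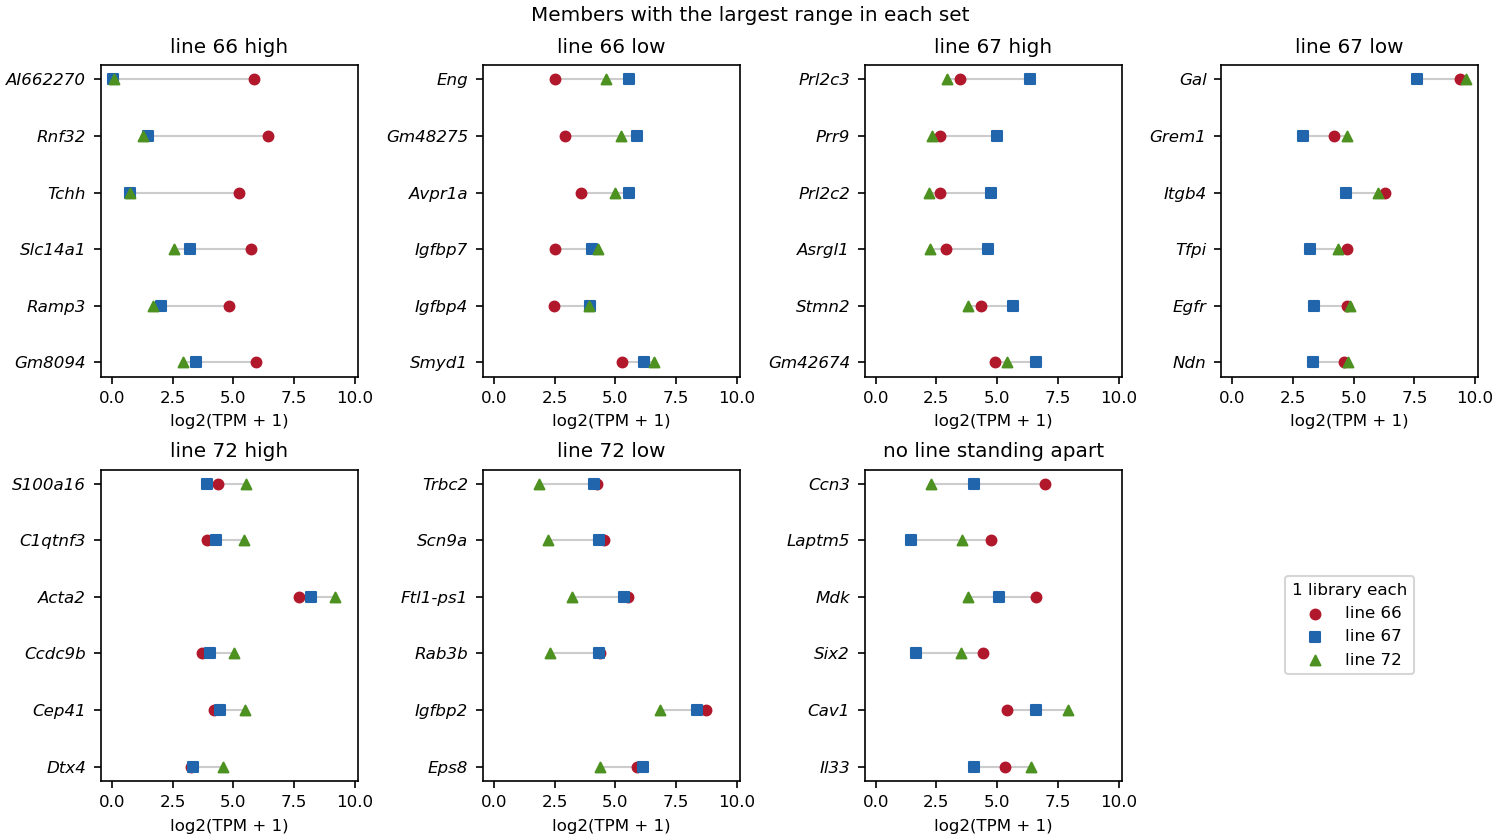
The genes with the largest range in each group are shown on the log2(TPM + 1) axis, with 1 marker per line and 1 library per marker. AI662270, Rnf32 and Tchh lie near the bottom of the axis in lines 67 and 72, whereas Gal, Acta2 and Igfbp2 differed at high levels in all 3 lines.

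Besides the leading genes, the group high in line 66 held Slc14a1, Cldn4, Cyba and Ramp3. Slc14a1, a urea transporter, was at 51.6, 8.21 and 4.88 TPM in lines 66, 67 and 72. Cldn4, a claudin of tight junctions, was at 54.8, 10.1 and 5.99 TPM. Cyba, a subunit of the superoxide-producing NADPH oxidase, was at 50.1, 5.49 and 8.66 TPM. In all of these line 66 was more than 5-fold above either other line, as it was in Ramp3, at 27.3, 3.08 and 2.26 TPM. Ramp3 encodes a partner of the calcitonin receptor-like receptor, and that receptor's gene, Calcrl, was itself over 2-fold apart but highest in line 67 (8.31, 27.6 and 9.89 TPM).

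Other genes of the same group were Adra1b, Dio2 and Dusp1. Adra1b, an adrenergic receptor, was at 25.0 TPM in line 66 against 9.55 and 12.1 in lines 67 and 72. Dio2, the deiodinase that activates thyroid hormone, was at 84.4 against 34.3 and 31.7 TPM. Dusp1, an immediate early phosphatase that inactivates MAP kinases, was at 61.2 against 25.0 and 32.5 TPM. Of 18 compared genes of an immediate early and heat shock list, Dusp1 and Hspb8 lay over 2-fold apart (11.1%, beside 2.02% of all genes compared), and they went opposite ways, since Hspb8, a small heat shock protein, was lowest in line 66 (59.2, 147 and 128 TPM).

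Receptors known from leukocytes were also in this group. Cd300ld3, of the CD300 family of leukocyte receptors, was at 37.2, 8.78 and 4.70 TPM, and Mgl2, a macrophage lectin, at 22.03, 6.07 and 6.63 TPM. Both lie on chromosome 11, and 84.1% of the 31-base words of Cd300ld3 also lie in Cd300ld5. Gm8094, a predicted gene, was at 60.0, 10.03 and 6.55 TPM and shares 92.8% of its words with Gm8127.

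The group low in line 66 opened with Eng, which encodes endoglin, a co-receptor of the TGF-beta family, at 4.78, 45.9 and 23.2 TPM in lines 66, 67 and 72. Avpr1a, a vasopressin receptor, was at 11.1, 46.2 and 30.7 TPM. The insulin-like growth factor binding proteins Igfbp7 (4.65, 15.5 and 18.4 TPM) and Igfbp4 (4.52, 14.7 and 14.2 TPM) were both over 3-fold lower in line 66 than in either other line. Smyd1 and Mef2c, in the same group, belong to muscle differentiation. Smyd1, a methyltransferase of heart and skeletal muscle, was at 38.3, 72.2 and 96.1 TPM, and Mef2c, a transcription factor gene, at 19.9, 39.9 and 48.8 TPM.

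Among genes high in line 67, the largest range was that of Prl2c3, of the prolactin family. Prl2c3 was at 10.1, 80.5 and 6.75 TPM and Prl2c2 at 5.35, 26.2 and 3.62 TPM in lines 66, 67 and 72. The near-identical sequences of these proliferins make the division between them uncertain, since 67.0% of the 31-base words of Prl2c3 also occur in Prl2c2. Stmn2, a regulator of microtubules in neurons, was at 18.9, 49.4 and 12.8 TPM. Adcyap1r1, a receptor for the peptide PACAP, was at 7.70, 25.6 and 9.81 TPM. Asrgl1, an asparaginase-like enzyme, was at 6.43, 23.6 and 3.70 TPM, and Prr9, a proline-rich protein, at 5.26, 31.1 and 3.96 TPM. In all of these genes line 67 was over 2-fold above both other lines. Proteolysis genes were represented by Mmp2, a gelatinase (14.2, 25.6 and 11.2 TPM), and Serpinb2, an inhibitor of plasminogen activators (20.5, 54.3 and 22.4 TPM), which were 2 of the 11 protease and inhibitor genes compared (18.2%, beside 2.02% of all genes compared). Line 67 was the highest line in both.

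Gal, which encodes the neuropeptide galanin, led the group low in line 67 and had the highest mean level after S100a4, at 663, 194 and 796 TPM. The same group held Egfr, Wnt7b and Grem1. Egfr, the epidermal growth factor receptor, was at 25.4, 9.24 and 27.9 TPM, and Wnt7b, a Wnt ligand, at 22.999, 8.65 and 17.8 TPM. Grem1, a secreted antagonist of bone morphogenetic proteins, was at 17.5, 6.53 and 25.1 TPM. Lines 66 and 72 lay close together in Egfr, whereas in Grem1 they were further apart. Other genes low in line 67 were Itgb4, an integrin subunit (76.4, 24.6 and 63.1 TPM), and Cdc34, a ubiquitin-conjugating enzyme, at 293, 137 and 294 TPM.

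The groups in which line 72 stood apart held no range above 2.40. On the high side, S100a16, an EF-hand calcium-binding protein, was at 19.6, 14.1 and 45.2 TPM, C1qtnf3, a secreted protein of the C1q/TNF family, at 14.3, 18.6 and 41.8 TPM, and Dtx4, a Deltex-family ubiquitin ligase, at 8.66, 9.02 and 22.8 TPM. In these 3 genes line 72 was over 2-fold above both other lines. On the low side, Scn9a, a voltage-gated sodium channel, was at 22.2, 19.2 and 3.64 TPM. Rab3b, a small GTPase of vesicle release, was at 19.9, 19.2 and 4.02 TPM. Eps8, a regulator of actin, was at 57.6, 68.7 and 19.5 TPM, and Ptgs2, the inducible cyclooxygenase, at 39.9, 34.7 and 11.9 TPM. Each was over 2-fold lower in line 72 than in both other lines. Htr1b, a serotonin receptor, was at 25.7, 21.9 and 11.9 TPM, Epha1, an ephrin receptor, at 56.3, 48.1 and 26.7 TPM, and Cd24a, a surface glycoprotein, at 149, 126 and 68.8 TPM.

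Among families with more than 1 gene in the set, Prl2c2 and Prl2c3 shared an order of the lines, as did the troponin genes described with muscle, whereas the following did not. Ptgs1, the other cyclooxygenase gene, was at 33.8, 50.7 and 24.1 TPM, so line 67 was its highest line and line 66 that of Ptgs2. The water channels Aqp5 (8.52, 21.3 and 22.1 TPM) and Aqp1 (27.9, 44.2 and 19.6 TPM) had lines 66 and 72 as their lowest. The cyclic AMP phosphodiesterase Pde4b was highest in line 66 (20.5, 11.6 and 8.96 TPM), where Pde4d was lowest (16.3, 33.9 and 24.3 TPM).

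The graded genes included several transcription factors. Six2 was at 20.3, 2.15 and 10.2 TPM in lines 66, 67 and 72, Dlx3 at 20.7, 9.27 and 3.52, and Foxc2 at 23.9, 14.9 and 5.54. Gata4 was at 22.1, 14.7 and 8.44 TPM, so that these 4 genes were highest in line 66. Sp7, a factor known from bone, was highest in line 67 (15.1, 30.7 and 9.96 TPM), and Vgll2, a cofactor expressed in skeletal muscle, was highest in line 72 (28.0, 15.6 and 43.9 TPM).

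Other graded genes had varied roles. Mdk, the heparin-binding growth factor midkine, was at 95.9, 32.8 and 13.0 TPM and was over 2-fold apart as 1 of 12 growth factor and cytokine genes compared (8.33%, beside 2.02% of all genes compared); Il33, a cytokine outside that list, was at 39.5, 15.7 and 83.4 TPM. Cav1, the main protein of caveolae, was at 40.8, 97.0 and 242 TPM. Reln, the secreted protein reelin, was at 31.8, 42.4 and 67.2 TPM, and Ripk3, a kinase of necroptosis, at 24.8, 13.3 and 4.25 TPM. Line 72 was the highest line in Cav1 and Reln and the lowest in Ripk3. Dynap was the most abundant gene highest in line 66, at 695, 162 and 330 TPM. S100a4, a calcium-binding protein, was the most abundant of all 164, at 553, 1712 and 933 TPM, but 49.2% of its 31-base words also lie in the overlapping transcript Gm42674.

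Genes of differentiated muscle formed the largest listed group. Of 36 genes listed, 33 were compared, and 11 of these (33.3%) were over 2-fold apart, against 2.02% of all genes compared. The list was written with earlier results of these data known, so the count is no independent evidence. The 11 were Tnnt1, Tnni2, Tnnc2, Myl1, Mybpc1, Actc1 and Actn2 of the sarcomere, Atp2a1, Casq2 and Hrc of calcium handling in the sarcoplasmic reticulum, and Mymx, which drives myoblast fusion. All 11 were lowest in line 66 and highest in line 72, with line 67 between.

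The values of the 11 show how far the lines were from each other. Mybpc1, a myosin-binding protein, was at 7.45, 14.5 and 23.7 TPM in lines 66, 67 and 72, a mean of 15.2 ± 8.16 TPM (SD, n = 3 lines). Tnnt1, the slow troponin T, was at 281, 339 and 658 TPM, a mean of 426 ± 203 TPM, and was the only 1 of the 11 in which line 72 stood apart as high. Mymx was at 11.5, 18.3 and 27.4 TPM. In Mybpc1 and Mymx the lines were more evenly spaced on the log2 scale, whereas in the fast troponin genes line 66 stood apart as low. Tnnc2 was at 54.7, 111 and 126 TPM and Tnni2 at 31.4, 61.2 and 72.4 TPM. Among the calcium-handling genes, Casq2, which stores calcium, was at 43.4, 76.3 and 103 TPM, and Atp2a1, the fast-muscle calcium pump, at 34.8, 58.2 and 79.9 TPM. Hrc, a histidine-rich calcium-binding protein, was at 9.95, 18.8 and 23.9 TPM.

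Most of the other muscle genes had the same lowest and highest line. Over the 33 compared, line 66 was lowest in 30 and line 72 highest in 28, and 27 were in the order 66, 67, 72 from lowest to highest. Over all genes compared, line 66 was lowest in 47.4% and line 72 highest in 45.5%. The median range of the 33 was 0.90, beside 0.23 over all genes. The summed level of the list was 3942, 5309 and 6595 TPM in lines 66, 67 and 72. Mybph (0.97) and Klhl41 (0.98) lay just under the threshold, whereas Chrnd and Cdh15, which myoblasts already express, had ranges of 0.17 and 0.21. In such bulk samples, fewer differentiated cells and less RNA of these genes per cell cannot be told apart.

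**Figure D4:**
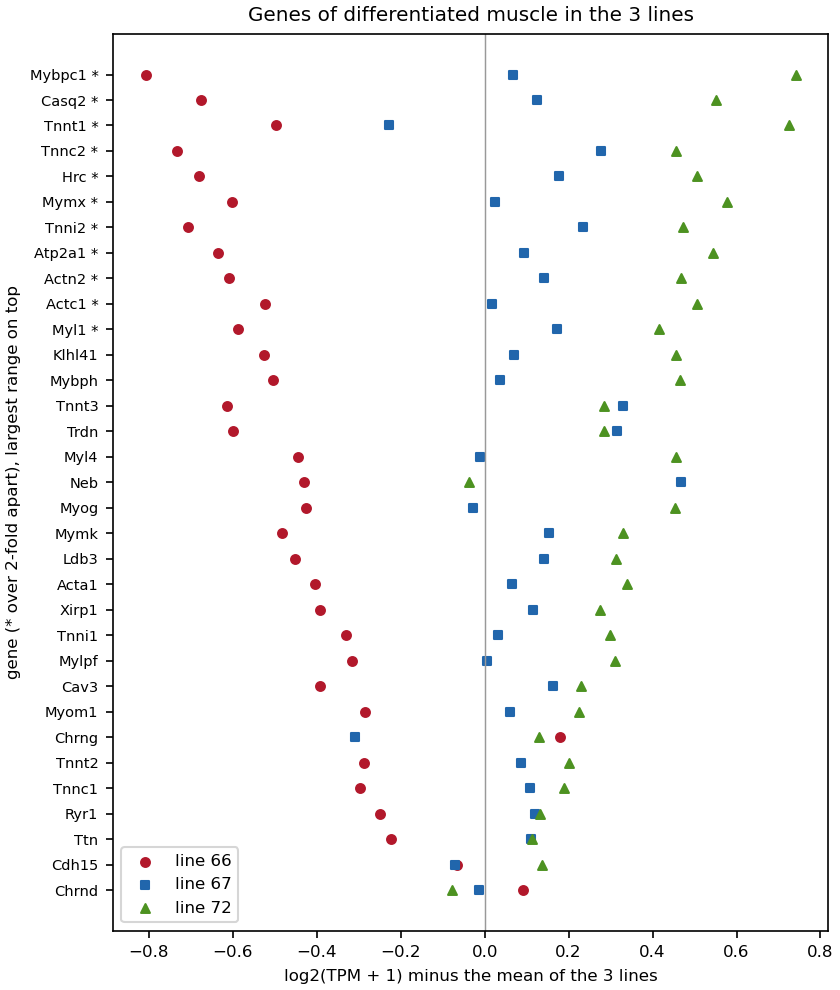
For each of the 33 muscle genes compared (y axis, largest range on top, asterisks marking the 11 over 2-fold apart), the x axis gives log2(TPM + 1) in each line minus the gene's mean over the 3 lines, with 1 library per marker. Line 66 is the leftmost marker in 30 of the 33 genes and line 72 the rightmost in 28.

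Of the 11 muscle genes, 9 had a promoter window in the RefSeq table, and 4 of these 9 held CAGCTG, the letters to which myogenic bHLH factors such as MyoD are known to bind. Of all 32851 windows in the table, 16.3% held CAGCTG, and of the 6477 windows found for the 8116 genes compared, 13.9%. Of the 33 muscle genes compared, the 11 included, 25 had a window, and 12 of these (48%) held it. The wider motif CANNTG, of which every CAGCTG is a match, was in 9 of the 9, in 22 of the 25, in 72.3% of all windows and in 59.6% of those of the genes compared. Both motifs read the same on either strand. A match is a description of letters and not of binding. The 4 windows are shown with CAGCTG in capitals because these genes shared both the letters and the order of the lines. They lie at chr1:66945007-66945306 on the minus strand for Myl1, chr10:88605103-88605402 on the minus strand for Mybpc1, chr7:45335019-45335318 on the plus strand for Hrc and chr7:126463024-126463323 on the minus strand for Atp2a1 (GRCm38.p6).
Myl1: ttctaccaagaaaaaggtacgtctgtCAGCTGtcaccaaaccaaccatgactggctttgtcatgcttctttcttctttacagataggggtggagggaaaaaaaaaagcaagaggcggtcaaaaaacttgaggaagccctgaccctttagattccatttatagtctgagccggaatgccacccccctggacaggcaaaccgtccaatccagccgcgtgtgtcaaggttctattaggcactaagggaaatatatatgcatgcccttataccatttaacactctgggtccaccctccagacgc
Mybpc1: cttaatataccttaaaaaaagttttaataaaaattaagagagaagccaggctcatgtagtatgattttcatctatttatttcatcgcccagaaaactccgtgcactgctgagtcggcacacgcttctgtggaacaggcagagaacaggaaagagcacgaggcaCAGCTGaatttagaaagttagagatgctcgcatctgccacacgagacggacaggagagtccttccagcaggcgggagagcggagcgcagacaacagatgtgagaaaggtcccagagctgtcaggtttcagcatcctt
Hrc: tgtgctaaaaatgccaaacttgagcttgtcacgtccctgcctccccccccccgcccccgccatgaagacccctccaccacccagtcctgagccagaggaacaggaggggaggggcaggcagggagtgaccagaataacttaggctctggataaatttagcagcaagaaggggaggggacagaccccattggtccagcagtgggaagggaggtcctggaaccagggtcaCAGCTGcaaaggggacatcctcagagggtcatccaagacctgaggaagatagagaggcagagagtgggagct
Atp2a1: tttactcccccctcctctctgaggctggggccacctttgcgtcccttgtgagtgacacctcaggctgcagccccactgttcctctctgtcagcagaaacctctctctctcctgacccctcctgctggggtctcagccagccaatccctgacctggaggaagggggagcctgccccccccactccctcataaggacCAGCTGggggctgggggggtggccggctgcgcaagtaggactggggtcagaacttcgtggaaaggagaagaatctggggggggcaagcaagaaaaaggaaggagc

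Of 25 cell cycle genes listed and compared, 0 were over 2-fold apart, beside 2.02% of all genes compared, and their median range was 0.35. Line 66 was nevertheless lowest in 22 of the 25, beside 47.4% of all genes compared, and line 67 was highest in 15, beside 25.9%. Their summed level was 2752, 3371 and 3416 TPM in lines 66, 67 and 72. The satellite cell quiescence list (14 compared, median range 0.43) and the Notch list (9 compared, median range 0.30) also held none.

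Of 28 listed proteins that bind or inhibit growth factors, 11 were compared and 5 were over 2-fold apart (45.5%, beside 2.02% of all genes compared), with a median range of 0.97 (0.23 over all genes). These were Grem1, Igfbp7 and Igfbp4, given above, together with Igfbp2 and Igfbp3. Igfbp2 was at 419, 330 and 113 TPM in lines 66, 67 and 72 and was low in line 72. Igfbp3 was at 107, 61.9 and 141 TPM. The 4 insulin-like growth factor binding proteins thus did not share 1 order, since line 66 was lowest for Igfbp4 and Igfbp7, line 67 for Igfbp3 and line 72 for Igfbp2. Igfbp5, known from differentiating muscle, had a range of 0.47 at 180, 217 and 250 TPM.

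Of 5 compared genes of a cornified envelope and epithelial list, 3 were over 2-fold apart (2.02% of all genes compared were), and line 66 was the highest line in all 5, as it was in 28.6% of all genes compared. The 3 were Tchh, Cldn4 and Krt19, a keratin of simple epithelia, at 19.1, 8.10 and 12.9 TPM. S100a6 and Jup, the other two compared, had ranges of 0.59 and 0.27. Only 8 of the 21 matched genes of the list reached 1 TPM in at least 1 line. Epcam, Cdh1, Krt8 and Dsp were under 1 TPM in every line, and Krt5 and Krt17 had a count of 0.

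Imprinted genes apart from those left out held 3 of 24 compared (12.5%, beside 2.02% of all genes), with a median range of 0.34. Meg3 and Rian are noncoding RNAs of 1 imprinted cluster on chromosome 12 and had the same order. Meg3 was at 64.6, 153 and 118 TPM and Rian at 26.0, 65.3 and 38.9 TPM in lines 66, 67 and 72. Both were highest in line 67 and lowest in line 66. Ndn, the third, encodes necdin and had another form, at 23.2, 9.02 and 26.5 TPM.

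The following lists each had 2 or fewer genes over 2-fold apart, a count to be read beside the 2.02% of all genes compared. Guidance and neural genes held 2 of 14 compared, Stmn2 and Ntn4, which encodes a netrin (86.8, 41.9 and 54.0 TPM). The oxidant response held 1 of 16, Nqo1, a quinone reductase, at 14.1, 38.3 and 21.9 TPM. Secreted matrix genes held 1 of 18, Ccn3, the MHC list 1 of 4, H2-K1, a class I gene (37.4, 15.6 and 16.1 TPM), and the Wnt list 1 of 2, Wnt7b. None was found among 15 genes of the integrated stress response, 15 p53 targets, 15 genes of cholesterol synthesis, 12 of hypoxia and glycolysis or 3 of the interferon response.

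Markers of other cell types were examined beside these results. Among 14 immune genes, Laptm5, a lysosomal protein of blood cells, was the only 1 compared and was over 2-fold apart, at 25.5, 1.77 and 10.9 TPM. The summed level of the immune list was 32.2, 6.54 and 17.4 TPM, so Laptm5 made up most of it in lines 66 and 72. Adgre1, C1qa, C1qb and Tyrobp had a count of 0 in all lines, and Ptprc, the defining pan-leukocyte marker, had 1, 3 and 7 estimated counts. Trbc2, annotated as a T cell receptor constant gene, was at 18.05, 16.2 and 2.61 TPM, while Cd3e had at most 2 counts in any line. Line 72 stood apart as low in Trbc2, and 48.5% of the 31-base words of Trbc2 also lie in Trbc1.

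Of 15 smooth muscle and pericyte genes, 6 were compared and 3 were over 2-fold apart, beside 2.02% of all genes compared. Acta2, smooth muscle actin, was at 209, 292 and 581 TPM and Tagln, transgelin, at 61.0, 49.5 and 103 TPM, both high in line 72. Rgs5, a regulator of G protein signalling known from pericytes, was high in line 66 instead, at 356, 137 and 172 TPM. The defining genes Myh11, Pdgfrb and Cnn1 were under 1 TPM in every line. The list summed to 1170, 1039 and 1406 TPM, but it holds Des, which is also among the myoblast genes checked above. Des alone gave 484, 511 and 487 TPM of these sums in lines 66, 67 and 72. The fibroblast list, with 1 gene compared and none over the threshold, summed to 260, 324 and 463 TPM, mostly from Col3a1 and Prrx1, and Pdgfra was under 1 TPM in every line. Endothelial genes summed to 9.12, 10.7 and 8.26 TPM with none compared. No tendon gene (3 compared) or Schwann and glial gene (1 compared) was over 2-fold apart, and no adipocyte gene was compared.

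The 164 were not evenly placed over the autosomes. Chromosome 6 held 14 of 391 genes compared (3.58%), chromosome 14 held 9 of 293 (3.07%), and chromosome 11 held 21 of 695 (3.02%). Chromosomes 3 (12 of 410, 2.93%), 1 (14 of 480, 2.92%) and 10 (12 of 426, 2.82%) came next, while chromosome 16 held 0 of 276. Outside chromosomes 6, 10 and 11 there were 117 of 6604 (1.77%). The median gene of chromosome 11 was 0.32 higher in line 66 than in the mean of the other lines on the log2(TPM + 1) scale, relative to all genes, and that of chromosome 10 was 0.28 higher. The median gene of chromosome 6 was 0.15 higher in line 72.

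Of the 32 genes high in line 66, 11 (34.4%) lay on chromosomes 10 and 11, which hold 13.8% of the genes compared. Nearly all of the 11 were on chromosome 11, with 10 among its 695 genes compared and only 1 among the 426 of chromosome 10. Those on chromosome 11 included AI662270, Ramp3, Adra1b and Itga3, a laminin-binding integrin subunit at 59.8, 28.5 and 30.5 TPM. When the median of its chromosome was removed from each gene in each line, 136 of the 164 remained over the threshold, 28 no longer passed and 16 others did. Of the 28, 13 were on chromosomes 10 and 11, among them Adra1b, Itga3, Dusp14, Krt19, Stat5a and Ntn4. The muscle genes Actn2, Myl1 and Actc1, on other chromosomes, were also among the 28. AI662270, Rnf32, Ccn3 and Tchh remained over it. The part of these chromosome-wide shifts in the ranges of single genes was not tested further.

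**Figure D5:**
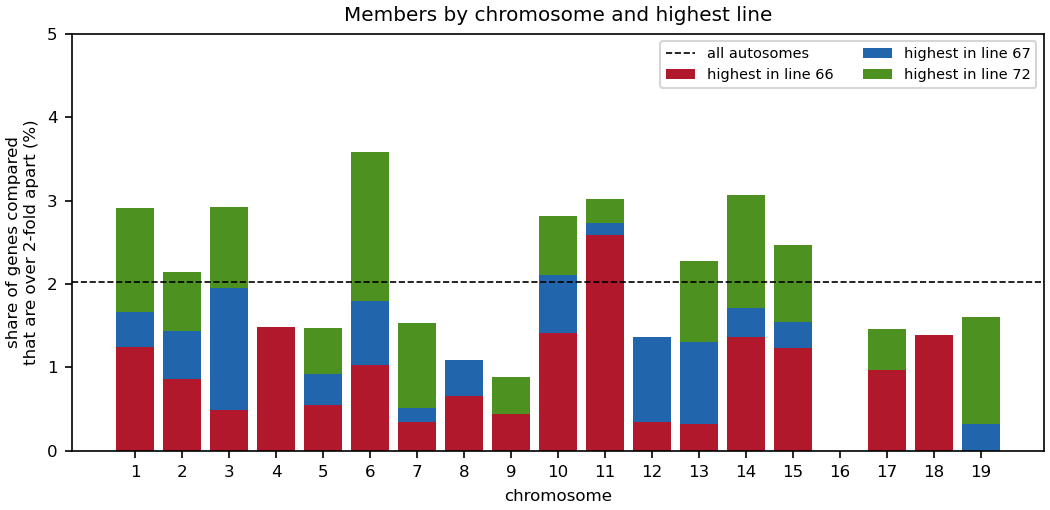
Bars give, for each autosome (x axis), the share of its genes compared that were over 2-fold apart (y axis, %), divided by the highest line, and the dashed line is the 2.02% of all autosomes. Chromosome 11 has the largest part highest in line 66, and chromosome 16 has no bar.

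Of the 164, 19 lay within 100 kb of another, in 11 pairs, and in 7 pairs both genes were highest in the same line. The 7 include Gm42674 and S100a4, which overlap, and 65.4% of the sequence words of Gm42674 also lie in S100a4. They also include Gm8094 and Gm8104, for which only 2.10% and 27.2% of the words lay in no other gene. The same counts were not made over all genes compared, so whether neighbours shared a highest line more often than other genes was not tested. Mcpt8 and Gzme, a pair of serine protease genes on chromosome 14, were both highest in line 72 and lowest in line 67, at 32.4, 23.5 and 51.1 TPM and at 16.8, 9.60 and 26.4 TPM. C1qtnf3 and Amacr, 1606 bases apart on chromosome 15, were both highest in line 72 and lowest in line 66, with Amacr, a racemase of fatty acid oxidation, at 18.4, 26.5 and 42.7 TPM. Calcrl and Tfpi, 7444 bases apart on chromosome 2, went opposite ways. Calcrl was high in line 67, and Tfpi, an inhibitor of coagulation, was low there (25.6, 8.28 and 19.4 TPM).

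Most of the 164 could be told from other genes by sequence. For 58 of them every 31-base word lay in no other gene, for 125 at least 95% of the words did, and for 12 under 50% did. Those 12 were Prl2c2, Prl2c3, Cd300ld3, Tagln, Tnnc2, Ftl1-ps1, Gm8094, Gm8104, Gm11808, Gm42674, Gm43558 and Gm48275, and the division of reads between them and their copies or overlapping genes is an estimate. For Tnnc2 the shared words lay in Ube2c, which overlaps it.

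Protein-coding genes made up 154 of the 164, which is 1.93% of the 7998 compared. Long intergenic noncoding RNAs held 4 of 45 and processed transcripts 3 of 37. For 142 of the 164 the same transcript was the most abundant in all lines. Over all 164, the leading transcript alone had a range above 1 in 146 genes and not in 18, among them Ptgs1 at 0.26. In CPM, which does not correct for length, 8 of the 164 had a ratio of the highest to the lowest line under 2. They included Tnni2 (1.92) and Myl1 (1.94). For 137 the lower 95% exact bound of that ratio was above 2. These bounds cover counting error only, and the genes had been chosen by their range in the same libraries. The count of 137 is therefore a description and lends the set no support.

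At the threshold on the range, the genes just inside were Cthrc1 (1.003) and Myl1 (1.004), and just outside were Btbd11 (0.994), Gm11816 (0.993) and Ddt (0.988). By mean level, Rin2 (10.01 TPM) and Tmem144 (10.3 TPM) were just inside. Gdf15, Cadm4 and Nefm were just outside, at 9.93, 9.86 and 9.85 TPM.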

How the data were processed

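RNA-seq libraries of 3 edited Dmdmdx; Pax7-nGFP myoblast lines were used as 1 group, with the line as the replicate. The submitters' processing notes name bcl2fastq 2.20, fastp 0.20 and kallisto 0.46.1 and the build GRCm39, without roles or order. For each transcript the authors deposited an estimated count, in which a read that fits several transcripts is divided between them. The authors also deposited TPM, the estimated count per effective length scaled to 1000000 per library, so a gene that takes many reads lowers the TPM of others. Symbols, coordinates and types came from GENCODE release M21 (GRCm38), in which 120739 of 121798 transcript identifiers (99.1%) were found. TPM and estimated counts were summed per gene. Levels were compared as log2(TPM + 1), a scale that understates the change of genes of low level.

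The members and gene lists were chosen with earlier results of these data known, and no test was made, because 1 condition holds no groups to compare. The genes named were AI662270, Rnf32, Ccn3 and Tchh, the 6 members of largest range in each group of line and direction, the 4 of largest range among graded members, members in a gene list, members within 100 kb of another, and genes at the thresholds; other members named were chosen after their values were seen. Intervals of ratios (exact Clopper-Pearson, 95%) cover counting error only. A count of 0 allows up to 3 counts, between 0.0409 and 0.0448 CPM (estimated counts scaled to 1000000 per library).

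Alternatives were a pseudocount of 0.1, a mean of at least 1 TPM, no filter, CPM, counts scaled by TMM (edgeR 4.0.16) or size factors (DESeq2 1.42.0), a 4-fold threshold, transcripts of at least 5% of their gene, no minimum ratio of gaps, and leaving out each line. Removal of chromosome medians was added after seeing the data. The rule was tested on simulated data. Promoter windows were found for 116 of the 164 genes (70.7%), so a comparison of base composition or motifs over all of them was void. Scripts ran in Python 3.11.15 and R 4.3.3. Some genes of the set are not reported here by name.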

Additional observations from a re-analysis of the deposited data

Results flagged for a closer look

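Transcripts without an entry in the annotation lay outside the comparison, and some of them differed between the lines as well. Of 1059 such transcripts, 58 had a mean of at least 10 TPM, and 9 of the 58 were over 2-fold apart on the log2(TPM + 1) scale. They are given because they are a signal in data that the comparison did not use, and they were picked by the same mean and range as the genes. The one furthest apart was at 0.0288, 12.2 and 19.3 TPM in lines 66, 67 and 72, and the next at 49.3, 8.15 and 7.16 TPM. They hold between 0.471% and 0.511% of all estimated counts together with the other unmatched transcripts, and the genes to which they belong were not used here.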

How the results depend on the processing

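The count of 164 genes over 2-fold apart became 457 with a mean of at least 1 TPM, 506 with no filter and 34 with a 4-fold threshold. It ranged from 60 to 97 when 1 line was left out, being 60 without line 66, 97 without line 67 and 89 without line 72, where only 1 pair of lines remains. In the order mean of at least 1 TPM, no filter and 4-fold threshold, genes in which line 66 stood apart went from 51 to 118, 135 and 13, those of line 67 from 24 to 78, 85 and 5, those of line 72 from 26 to 88, 104 and 4, graded genes from 63 to 173, 182 and 12, and genes of chromosomes 10 and 11 highest in line 66 from 24 to 43, 48 and 5. With CPM in place of TPM, line 67 stood apart in 42 and line 72 in 41, and line 67 in 40 with TMM and 40 with DESeq2 size factors. With no minimum ratio of gaps, line 67 stood apart in 48, line 72 in 43 and no gene was graded (0). With chromosome medians removed, an alternative chosen after seeing the data, 11 genes of chromosomes 10 and 11 were highest in line 66. The total stayed within 1.5 times of 164 with a pseudocount of 0.1 (181), CPM (233), TMM (223), DESeq2 size factors (223), transcripts of at least 5% (165) and chromosome medians removed (152). CPM shared 128 of the 164, since 29 fell under a mean of 10 CPM and 7 had a range of at most 1, and 105 others passed. The highest line was the same for 159 of the 164 and the lowest for 158. Of 789 ranges of 88 named genes under the alternatives, 701 moved by less than the spread between the lines, and the other 88 all came from leaving out a line. Without a line, the line that stands apart cannot be given. No paired analysis was possible because the lines form 1 group. Depth did not limit the ranges of most of the 164, since only AI662270 had a lowest count of at most 3, but 1 library per line gives no measure of the error of repeated libraries.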
